A study of Mus musculus with 3 samples.

Results

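The checkpoint and costimulation ligands described here are 10 of the 32285 genes in the count matrices, chosen by name. Most encode a surface or secreted partner that tells a T cell to be restrained or to be helped. CD40 is instead a receptor that T cells engage, and the receptor of CD200 restrains myeloid cells. The 10 genes are Cd274 (PD-L1), Pdcd1lg2 (PD-L2), Cd80, Cd86, Icosl, Lgals9 (galectin-9), Pvr (CD155), Cd200, Tnfsf9 (4-1BB ligand) and Cd40. The source is 3 single-cell libraries of CD45+ immune cells from B16F10 melanomas grown under the skin of C57BL/6 mice. At day 9 of tumour growth all mice were given Pmel-1 cytotoxic T lymphocytes, T cells specific for the melanocyte antigen gp100 that had been activated in culture, by the vein. The groups are tumours taken at day 3, day 7 or day 14 after transfer, 1 library per day, each a pool of equal numbers of cells from 3 mice. All 3 groups carried the same tumour line and the same transfer. Mice without transfer were not analysed here, and no age of the mice is stated. Day after transfer, tumour age and library therefore cannot be told apart. A difference between days has no replicate behind it.

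T cells are activated by antigen together with a costimulatory signal, and the same contact can carry inhibitory signals. CD80 and CD86 on an antigen-presenting cell bind CD28, which costimulates, and CTLA-4, which inhibits. PD-L1 and PD-L2 bind the inhibitory receptor PD-1, and PD-L1 is a classical interferon-gamma target in myeloid and tumour cells. CD40 is itself a receptor: CD40 ligand on T cells engages it and drives dendritic cell maturation through NF-kB. Migratory dendritic cells are the mature, Ccr7-expressing state that carries tumour antigen to lymph nodes.

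Cells were assigned to 7 populations by UMI counts of gate genes in barcodes of at least 1500 UMIs (unique molecular identifiers, each 1 captured RNA molecule): monocytes (Ly6c2 and Chil3 at least 3 each), macrophages (Adgre1 and C1qa at least 1 each), conventional dendritic cells of type 1 (cDC1; Xcr1 and Clec9a at least 2 in sum) and type 2 (cDC2; Cd209a at least 2 and Flt3 at least 1), migratory DC (Fscn1 at least 2 and Ccr7 at least 1), neutrophils (S100a8 and S100a9 at least 20 in sum) and T cells (Cd3e and Cd3d at least 1 in sum). At days 3, 7 and 14 the gates held 607, 398 and 375 monocytes, 248, 130 and 312 macrophages, 81, 49 and 52 cDC1, 23, 27 and 28 cDC2, 39, 19 and 52 migratory DC, 85, 76 and 137 neutrophils, and 789, 970 and 1034 T cells. Each gate had the highest summed level of its own check markers (5 or 6 genes that were not used in the gate) on all 3 days. Markers of other types were present too: macrophage markers summed to 1428, 1534 and 2050 CPM (counts scaled to 1000000 UMIs) in the monocyte gate, and monocyte markers to 1422, 1012 and 948 CPM in the T cell gate. In the cDC2 gate monocyte markers summed to 2771, 1922 and 1723 CPM, above its own cDC2 markers (991, 1400 and 1582), although these were higher there than in any other gate. Values called cDC2 are those of cells that passed this gate, and the part of monocyte RNA in them was not tested. Median depth was 2397, 2605 and 2422 UMIs in neutrophils and between 8417 and 23550 in the other gates. A barcode counted in every gate it passed, and 190, 110 and 168 barcodes passed several. Among barcodes of at least 1500 UMIs, 4.97%, 6.92% and 3.00% had a sequence also present in another library. That share was 46.9% in cDC1 of day 7 and 28.9%, 53.7% and 12.5% among barcodes of 20000 UMIs or more. Values that moved over 1.5-fold without such barcodes or in cells of 1 gate are marked where a result turns on them. Intervals are exact, at 95%, and cover counting error only.

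Cd274 and Pdcd1lg2 are neighbours on chromosome 19 of GRCm38 (mm10), both protein coding on the plus strand, at 29367455-29388095 and 29410919-29471161. The 250 bases before the RefSeq start of each are printed because both genes were lower in monocytes, macrophages and cDC1 at day 14 than at day 3. Both windows are on the plus strand of GRCm38.p6, chr19:29367188-29367437 for Cd274 and chr19:29410669-29410918 for Pdcd1lg2. Capitals mark a match to the NF-kB motif, and the Cd274 window holds none.

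Cd274: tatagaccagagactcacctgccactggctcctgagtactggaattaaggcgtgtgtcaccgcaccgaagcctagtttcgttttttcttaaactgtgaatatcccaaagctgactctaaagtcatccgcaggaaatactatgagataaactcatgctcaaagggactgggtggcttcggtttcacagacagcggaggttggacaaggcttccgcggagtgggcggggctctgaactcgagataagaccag

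Pdcd1lg2: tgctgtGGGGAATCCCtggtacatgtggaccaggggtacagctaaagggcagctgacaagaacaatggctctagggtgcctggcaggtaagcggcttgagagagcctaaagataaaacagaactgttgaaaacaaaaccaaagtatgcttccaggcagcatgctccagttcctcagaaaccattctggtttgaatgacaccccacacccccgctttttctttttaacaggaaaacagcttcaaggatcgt

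The motifs searched on both strands were GAS (TTCNNNGAA, the interferon-gamma activated site), the ISRE core (GAAA and GAAA with 2 free bases between them, a site of interferon-regulated factors) and NF-kB (GGG and CC with 5 free bases between them). The Cd274 window held no match to any of them. The window of Pdcd1lg2 held 1 NF-kB match, GGGGAATCCC, at -244 to -235 counted from the start. RefSeq promoters matched 6 of the 10 genes, and Lgals9 was the only one of the 6 with an ISRE core match, TTTCTTTTTC at -55 to -46. Of 32851 promoters of the same length, 7.02% held GAS, 2.977% the ISRE core and 45.8% NF-kB, so an NF-kB match is common. A match describes the letters, not a site in use, and none of the matches was tested against the RNA levels.

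By CPM, Cd274 was highest in neutrophils on each day, the gate with the lowest median depth. On days 3, 7 and 14 neutrophils carried 857 CPM (755 to 967), 1523 CPM (1377 to 1677) and 527 CPM (462 to 599). Migratory DC carried 559, 444 and 428 CPM, monocytes 496, 244 and 191, and macrophages 317, 238 and 161. Levels were lower in cDC1 (244, 89.5 and 98.7 CPM), cDC2 (122, 132 and 72.7) and T cells (138, 87.2 and 77.3). At day 14 the intervals of neutrophils and migratory DC overlapped, and at day 3 those of migratory DC and monocytes did. At day 7 the intervals of monocytes and macrophages overlapped. The day 3 value of cDC1 was 386 CPM without barcodes of 20000 UMIs or more, the day 14 value 57.0, and the day 3 value of T cells 207. In neutrophils, 76.5%, 71.1% and 34.3% of cells had a Cd274 UMI, and after thinning each cell to 1500 UMIs, 56.5%, 63.2% and 28.5%. The thinned shares were 61.5%, 52.6% and 55.8% in migratory DC, higher than in neutrophils at days 3 and 14, so the order depends on the measure. They were 48.9%, 23.1% and 20.8% in monocytes, 16.3%, 12.8% and 10.2% in T cells, and 8.70%, 11.1% and 3.57% in cDC2, the lowest on each day. The cDC2 shares rest on 23, 27 and 28 cells. By CPM, cDC2 at day 7 were not the lowest but above cDC1 and T cells.

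**Figure D1:**
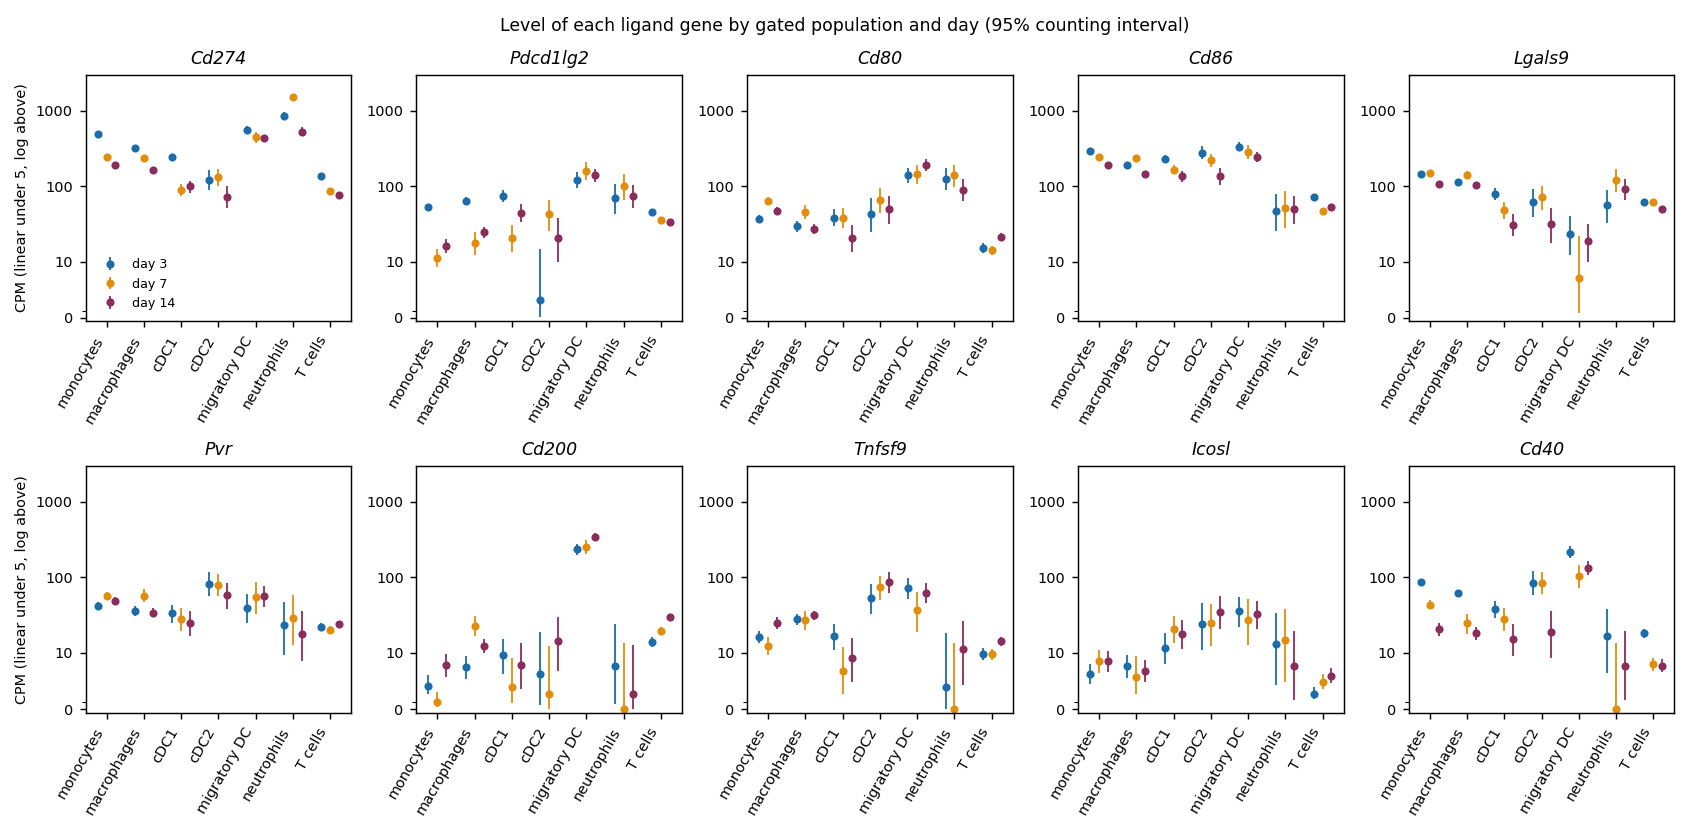
Level of each of the 10 genes (one panel each) in CPM on an axis that is linear under 5 and logarithmic above, by gated population and day. Points are 1 library each and bars are exact 95% counting intervals. Cd274 is highest in neutrophils, and Cd200 in migratory DC stands above all other populations (235, 254 and 342 CPM).

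Pdcd1lg2 was highest in migratory DC on all 3 days, at 121, 159 and 139 CPM. Neutrophils carried 69.4, 99.1 and 74.3 CPM, an interval that overlapped that of migratory DC at day 7. Without barcodes of 20000 UMIs or more, cDC1 (109.5 CPM) were level with migratory DC (109.4) at day 3. Monocytes had 52.3 CPM at day 3 (47.2 to 57.8), 11.3 at day 7 and 16.1 at day 14, and macrophages 63.5, 17.7 and 24.5. The day 14 value of monocytes was 7.16 CPM in cells that passed 1 gate only. T cells carried 45.0, 35.3 and 33.4 CPM, and since they are the most numerous gate, T cells of 1 gate held 21.8%, 40.1% and 34.3% of all Pdcd1lg2 UMIs, beside 29.9%, 42.1% and 31.8% of UMIs of all genes. The level in cDC1 was 74.9, 20.7 and 44.6 CPM. In cDC2 there was 1 UMI at day 3, 19 at day 7 and 10 at day 14, in 23, 27 and 28 cells.

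The comparisons between populations ask which cell type carries each ligand, and they are the only ones here with replicates: 21 sums of 7 populations in 3 libraries, 1-gate cells, fitted with edgeR with library as a block. The 3 libraries are 3 days, so the spread holds the differences between days, and nothing in the labels makes them more than 1 pool each. In migratory DC over cDC1, 8 of the 10 genes were higher at adjusted p under 0.05 and 1 lower, where 17.3% of 8684 genes tested were higher and 18.7% lower. In migratory DC over cDC2, 6 were higher and 1 lower, beside 15.5% and 16.1% of all genes. The median log2 fold of the 10 was 2.30 over cDC1 and 1.19 over cDC2, against -0.07 and -0.02 for all genes. Both comparisons share the migratory DC sums.

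Cd274 was higher in migratory DC by 2.41 log2 units over cDC1 (SE 0.30, edgeR adjusted p = 1.5e-06) and by 2.55 over cDC2 (SE 0.33, adjusted p = 3.0e-06). Pdcd1lg2 was higher by 2.18 (SE 0.47, adjusted p = 7.7e-04) and 3.20 (SE 0.63, adjusted p = 4.2e-04). Migratory DC were above each of the other dendritic cell types in all 3 libraries for both genes. In neutrophils over monocytes, Cd274 was higher by 2.31 (SE 0.28, edgeR adjusted p = 6.8e-07) and Pdcd1lg2 by 2.78 (SE 0.53, adjusted p = 1.8e-04), where the median of all genes was -0.55. Macrophages over monocytes did not pass the test for either (log2 fold -0.44, SE 0.27, adjusted p = 0.244 for Cd274; 0.56, SE 0.41, 0.338 for Pdcd1lg2). T cells were below macrophages for Cd274 by 1.81 log2 units (log2 fold -1.81, SE 0.28, adjusted p = 5.7e-06), and for Pdcd1lg2 the fold was 0.24 (SE 0.38, adjusted p = 0.603). Without the day 3 library, Pdcd1lg2 was higher in T cells by 0.71 (adjusted p = 0.0257) and higher in macrophages than in monocytes by 1.23 (adjusted p = 0.0163).

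**Figure D2:**
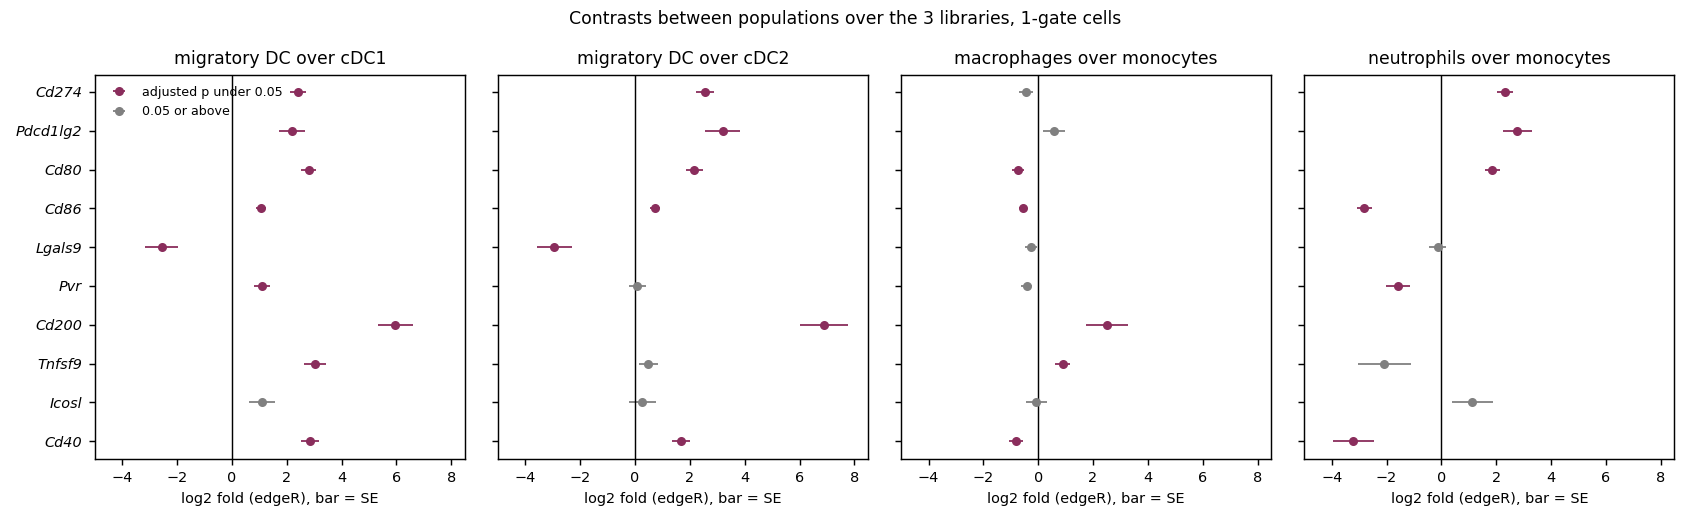
Log2 fold of each gene in 4 comparisons of populations (edgeR, 21 sums, 1-gate cells), with bars of 1 SE; dark points have an adjusted p under 0.05 and grey ones do not. Migratory DC are above cDC1 for 8 of the 10 genes and below for Lgals9, and neutrophils are above monocytes for 3 and below for 3; Cd200 in neutrophils, with no UMI, is not drawn.

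Between days, a gene counted as higher or lower where its CPM changed by 1.5-fold or more, the interval of the ratio lay on 1 side of 1, and both libraries together held 20 UMIs. This is a rule of size and not a test. Over 7 populations and 3 pairs of days, 48 of 210 ratios were lower at the later day, 19 higher, 119 not past the rule and 24 not measured. The 3 pairs of days share libraries, so each comparison's values are given side by side. The share of all measured genes that passed the same rule is given in parentheses, lower first. In monocytes, 4 of 10 genes were lower at day 7 than at day 3 and 1 higher, where 7.55% of 10056 genes were lower and 5.64% higher. At day 14 over day 3, 4 were lower and 2 higher (8.6% and 5.52%), and at day 14 over day 7, 1 and 2 (4.8% and 5.13%). In macrophages, 2 were lower and 3 higher at day 7 (10% and 5.05%), 3 lower and 1 higher at day 14 over day 3 (7.19% and 3.06%), and 4 lower and none higher at day 14 over day 7 (6.38% and 6.78%). In cDC1, 4 were lower and none higher at day 7 (8.92% and 4.29%), 6 and none at day 14 over day 3 (6.95% and 4.54%), and 3 and 1 at day 14 over day 7 (4.3% and 6.24%). In cDC2, none was lower and 1 higher at day 7 (4.74% and 4.38%), 3 and none at day 14 over day 3 (7.74% and 5.21%), and 4 and none at day 14 over day 7 (5.9% and 4.56%). In migratory DC, 2 were lower and none higher at day 7 (7.05% and 5.46%), 1 and none at day 14 over day 3 (5.28% and 6.38%), and none either way at day 14 over day 7 (4.5% and 6.74%). In neutrophils only 5 of the 10 had enough UMIs: none was lower and 2 higher at day 7 (12.4% and 9.93%), 1 and none at day 14 over day 3 (13.9% and 7.54%), and 1 and none at day 14 over day 7 (11% and 8.04%). In T cells, 3 were lower and 1 higher at day 7 (8.1% and 5.89%), 2 and 2 at day 14 over day 3 (4.77% and 4.97%), and none lower and 3 higher at day 14 over day 7 (3.25% and 5.16%). A count of 1 gene is too small to set against these shares. Counts of 2 lie above them but rest on 2 genes, and in neutrophils the 2 were of 5 measured. Counts of 3 or more, in either direction, are above them, with barcodes counted in every gate they passed. In cells of exactly 1 gate, 46 of the 67 ratios past the rule were kept. Among those not kept were Cd80 and Pvr in macrophages and Cd274 and Cd86 in T cells at day 7 over day 3. Cd200 and Tnfsf9 in T cells at day 14 over day 7 were not kept either. The share of all genes past the rule was not counted in 1-gate cells. In cDC1, cDC2 and migratory DC, 1 or 2 of the 10 were not measured in some of these comparisons.

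Monocyte Cd274 was 2.04-fold lower at day 7 than at day 3 (1.90 to 2.18) and 2.59-fold lower at day 14 (2.41 to 2.79). Monocyte Pdcd1lg2 was 4.62-fold lower at day 7 (3.45 to 6.30) and 3.24-fold lower at day 14 (2.54 to 4.17), or 5.95-fold in 1-gate cells. In macrophages, Cd274 was 1.97-fold lower at day 14 than at day 3 (1.82 to 2.13), and Pdcd1lg2 3.59-fold lower at day 7 (2.51 to 5.31) and 2.59-fold at day 14. In cDC1, Cd274 was 2.73-fold lower at day 7 (2.20 to 3.41) and Pdcd1lg2 3.61-fold (2.33 to 5.80). Day 3 was the high library for both genes in each of these 3 populations, and no interval of day 3 overlapped one of day 7 there. Neutrophil Cd274 had another order: 1.78-fold higher at day 7 than at day 3 (1.52 to 2.08), then 2.89-fold lower at day 14 than at day 7 (2.46 to 3.41). In 1-gate cells these were 1.84-fold higher and 3.40-fold lower. In migratory DC neither PD-1 ligand passed the rule between any 2 days.

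**Figure D3:**
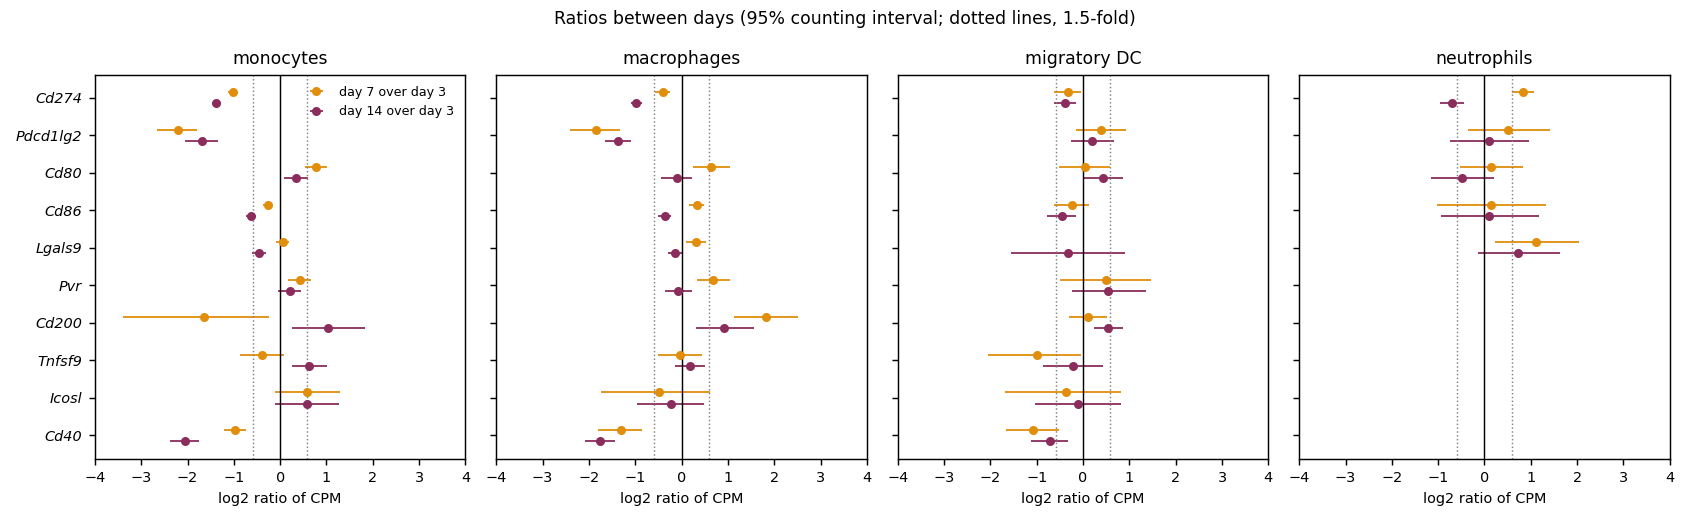
Log2 ratio of CPM at day 7 (orange) and day 14 (purple) over day 3 in 4 populations, with exact 95% counting intervals and dotted lines at 1.5-fold; genes under 20 UMIs over both libraries, or with none in one, are left out. In monocytes and macrophages Cd274, Pdcd1lg2 and Cd40 lie left of 0 at both days, while in neutrophils Cd274 lies right of 0 at day 7 and left at day 14.

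Cd80, a ligand of CD28 that binds CTLA-4 with higher affinity, was highest in migratory DC on all 3 days (141, 144 and 190 CPM), with neutrophils next (126, 139 and 90.1). The intervals of these populations overlapped at days 3 and 7, and without the top cell of each, neutrophils were higher at day 7 (129.6 against 112.6 CPM). Monocytes had 37.1, 63.3 and 46.8 CPM, macrophages 29.2, 45.5 and 27.1, cDC2 42.5, 64.7 and 49.8, cDC1 38.4, 38.1 and 20.6, and T cells 15.1, 14.2 and 21.5. The day 7 value of cDC1 was 63.7 CPM without barcodes of 20000 UMIs or more. Cd80 was higher in migratory DC than in cDC1 by 2.80 log2 units (SE 0.28, edgeR adjusted p = 3.9e-08) and than in cDC2 by 2.16 (SE 0.30, adjusted p = 8.0e-06). It was higher in neutrophils than in monocytes by 1.86 (SE 0.27, adjusted p = 7.0e-06). Neutrophil values at days 3 and 14 were 74.8 and 54.8 CPM among barcodes of at least 3000 UMIs. Monocyte Cd80 was 1.71-fold higher at day 7 than at day 3 (1.44 to 2.02), the only one of the 10 genes that was higher there. The macrophage ratio of 1.56 (1.18 to 2.05) was 1.09 in 1-gate cells.

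Cd86, the other B7 ligand of CD28 and CTLA-4, was spread over the antigen-presenting cells. Migratory DC had 333, 282 and 242 CPM, monocytes 295, 245 and 192, cDC2 276, 221 and 135, cDC1 230, 165 and 135, and macrophages 188, 235 and 146. Neutrophils, at 46.3, 51.4 and 49.5 CPM, stood far below, and 1-gate neutrophils had 25.1, 26.9 and 26.8 CPM from 5, 5 and 10 UMIs. Without barcodes of 20000 UMIs or more, cDC2 were above migratory DC at day 3 (341 against 322 CPM). T cells had 71.0, 47.2 and 53.1 CPM, and 45.7, 33.0 and 32.5 in 1-gate cells. At day 3 the intervals of migratory DC, monocytes and cDC2 overlapped in turn. Cd86 and Cd80 thus differed in neutrophils: Cd86 was lower than in monocytes (log2 fold -2.82, SE 0.27, edgeR adjusted p = 1.8e-08) where Cd80 was higher. Migratory DC were higher than cDC1 by 1.06 (SE 0.18, adjusted p = 6.6e-05) and than cDC2 by 0.72 (SE 0.19, adjusted p = 0.00515), and the second did not pass without the day 14 library (0.57, adjusted p = 0.125). Monocyte Cd86 was 1.54-fold lower at day 14 than at day 3 (1.43 to 1.67).

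Icosl, the ligand of ICOS, was the least counted of the 10, with 411 UMIs in the gated cells. It was highest in migratory DC and cDC2, at 35.6, 27.6 and 32.9 CPM and 23.9, 24.6 and 35.3 CPM, with overlapping intervals on every day. cDC1 carried 11.8, 20.7 and 18.0 CPM, and the day 7 value was 31.9 without shared barcodes. Monocytes and macrophages lay between 4.82 and 7.83 CPM. Neutrophils had 13.2, 14.7 and 6.76 CPM from 4, 4 and 3 UMIs, and T cells 2.28, 4.06 and 5.01, or 0.93, 3.33 and 3.03 in 1-gate cells. T cell Icosl was 1.78-fold higher at day 7 than at day 3 (1.11 to 2.89) and 2.19-fold higher at day 14 (1.41 to 3.51), or 3.58-fold and 3.26-fold in 1-gate cells. The test of migratory DC over cDC1 did not pass (1.10, SE 0.46, edgeR adjusted p = 0.0688). T cells were lower than macrophages (log2 fold -1.51, SE 0.40, adjusted p = 0.00260), which was 0.0735 without the day 3 library.

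Lgals9, a galectin that binds TIM-3 and other glycoproteins, had the reverse pattern among dendritic cells. Monocytes carried 145, 151 and 106 CPM and macrophages 113, 140 and 103. Migratory DC had 23.2 CPM at day 3, 6.13 at day 7 and 18.6 at day 14, the lowest of the 7 populations on each day, with intervals that overlapped those of neutrophils at day 3 and of cDC1 at day 14, and 9.91, 0 and 6.43 in 1-gate cells. Over the 3 libraries, 7 UMIs were found in 1-gate migratory DC and 117 in cDC1. Migratory DC were lower than cDC1 (log2 fold -2.56, SE 0.60, edgeR adjusted p = 0.00183) and than cDC2 (-2.94, SE 0.63, adjusted p = 9.2e-04), the only gene of the 10 lower in both. In cDC1 the level was 78.6, 48.1 and 30.9 CPM, 1.63-fold lower at day 7 than at day 3 (1.19 to 2.27) and 2.54-fold lower at day 14 (1.74 to 3.79). The 1-gate cDC1 value at day 14 was 14.7 CPM, and the day 7 ratio was 1.39-fold in 1-gate cells, not past the rule. cDC2 had 61.1, 71.4 and 31.1 CPM and T cells 60.8, 61.2 and 50.3. Neutrophils had 56.2, 121 and 92.3 CPM, 2.15-fold higher at day 7 than at day 3 (1.17 to 4.12), from 17 and 33 UMIs, and 3.09-fold in 1-gate cells.

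Pvr, which binds the inhibitory TIGIT and the activating CD226, was more even over the populations. It was highest in cDC2, at 82.4, 80.4 and 58.1 CPM, with an interval that overlapped the next population at days 7 and 14. T cells carried 21.9, 20.2 and 23.8 CPM and neutrophils 23.1, 29.4 and 18. The 1-gate neutrophils held 4, 1 and 5 UMIs, and their day 7 level was 5.37 CPM. At day 14 migratory DC were above cDC2 in 1-gate cells (79.2 against 52.5 CPM), without shared barcodes (65.3 against 61.2) and without the top cell (49.8 against 49.4). Monocytes carried 42.0, 56.3 and 48.4 CPM and migratory DC 39.2, 55.2 and 57.2. Macrophages had 35.7, 57.3 and 33.9 CPM and cDC1 33.4, 28.2 and 24.9, the last 37.5 in 1-gate cells. In the test, cDC1 were lower than cDC2 (log2 fold -1.02, SE 0.30, edgeR adjusted p = 0.0393), where 4.46% of all genes were lower and 3.14% higher. That call was lost without each library in turn (adjusted p between 0.063 and 0.231) and without shared barcodes (0.0833). Migratory DC were higher than cDC1 by 1.10 (SE 0.30, adjusted p = 0.00609), or 0.87 without the day 14 library (adjusted p = 0.101). In macrophages Pvr was 1.60-fold higher at day 7 than at day 3 (1.25 to 2.05), 1.45-fold in 1-gate cells.

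Cd200, whose receptor CD200R1 restrains myeloid cells, was concentrated in migratory DC. Levels there were 235 CPM (197 to 279), 254 CPM (203 to 315) and 342 CPM (300 to 388) on days 3, 7 and 14, with no overlap with any other population. T cells had 13.9, 19.3 and 29.9 CPM, and each other gate between 0 and 23.0. The share of cells with a Cd200 UMI was 82.1%, 89.5% and 82.7% in migratory DC, at median depths of 11017, 15551 and 12386 UMIs, and 2.31%, 1.26% and 3.73% in monocytes, at 10302, 10584 and 11507. Migratory DC of 1 gate held 1.24%, 0.79% and 1.32% of UMIs of all genes and 27.9%, 12.0% and 22.1% of the Cd200 UMIs. T cells of 1 gate held 33.0%, 47.3% and 38.6%, and cells of no gate 21.6%, 25.4% and 19.98%. The log2 fold of migratory DC was 5.96 over cDC1 (SE 0.64, edgeR adjusted p = 2.8e-07) and 6.88 over cDC2 (SE 0.88, adjusted p = 3.8e-06), and in each the groups did not overlap. The second rests on 3 UMIs in cDC2 against 354, a pooled ratio of 101 (34.2 to 491). Among T cells, Cd200 was 2.16-fold higher at day 14 than at day 3 (1.81 to 2.59). Without barcodes of 20000 UMIs or more the T cell level was 6.26 CPM at day 3 and 19.1 at day 14.

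Cd200 in macrophages depended on few cells. The level was 6.55, 23.0 and 12.4 CPM, and in 1-gate cells 1.98, 37.8 and 6.13. At day 14 it was 7.74 CPM without the top cell. Macrophages were above monocytes in the test (2.51, SE 0.78, edgeR adjusted p = 0.0221), but not without the day 7 library (0.83, adjusted p = 0.366). In monocytes 25, 5 and 35 UMIs were counted. Of these 5, 2 and 12 lay in 1-gate cells, too few there for a ratio between days. With barcodes in every gate they passed, monocyte Cd200 was past the size rule. It was lower at day 7 than at day 3, and higher at day 14 than at either. These calls are among the monocyte counts given above, and rest mostly on cells that passed several gates.

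**Figure D4:**
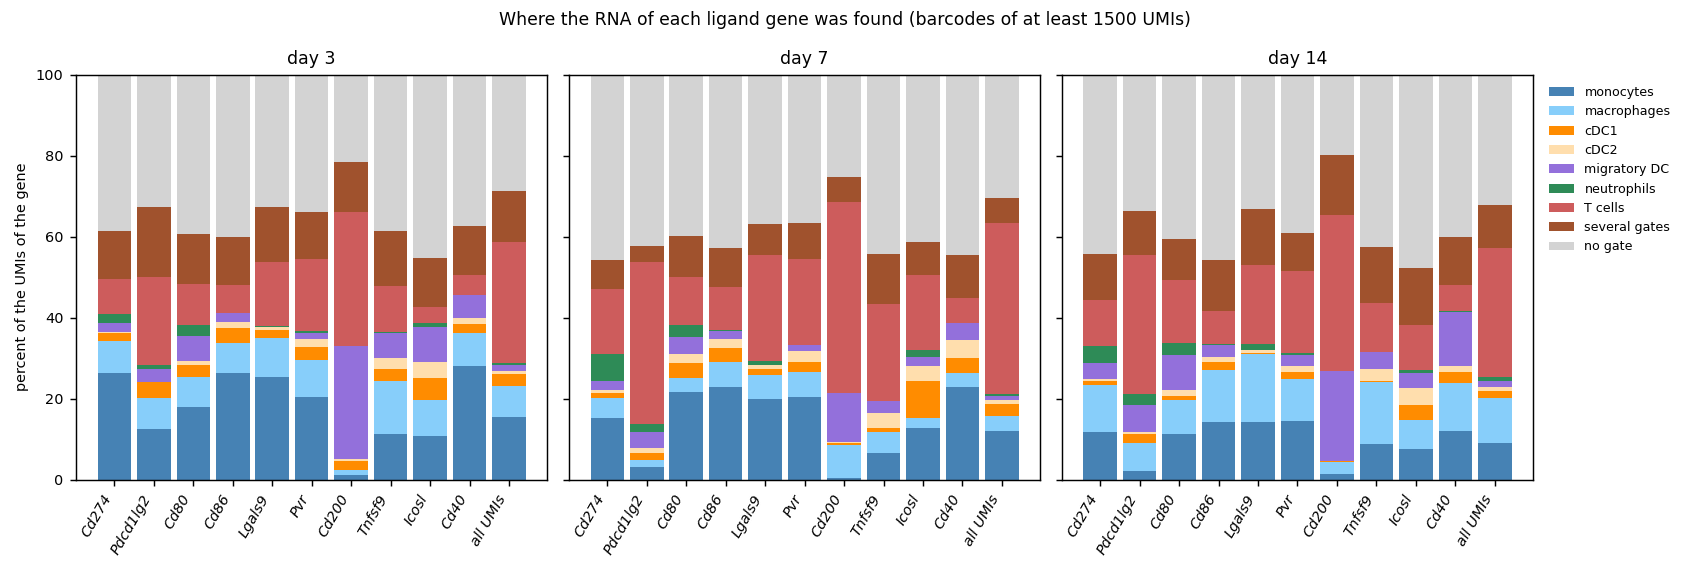
Share of the UMIs of each gene, and of all UMIs, that lay in 1-gate cells of each population, in cells of several gates and in cells of no gate (percent, one panel per day, 1 library each). Migratory DC hold 27.9%, 12.0% and 22.1% of Cd200 but 1.24%, 0.79% and 1.32% of all UMIs; cells of no gate hold 38.6%, 45.7% and 44.2% of Cd274.

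Tnfsf9, the ligand of the T cell costimulator 4-1BB, was highest in cDC2 (53.1, 73.7 and 87.2 CPM) and migratory DC (73.1, 36.8 and 62.9), whose intervals overlapped on every day. The cDC2 value at day 7 was 48.8 CPM in 1-gate cells. Macrophages carried 27.8, 27.3 and 31.5 CPM, monocytes 16.1, 12.4 and 24.9, and cDC1 16.7, 5.80 and 8.59. T cells had 9.76, 9.53 and 14.3 CPM and neutrophils 3.31, 0 and 11.3, from 1, 0 and 5 UMIs, of which 1-gate cells held 1, 0 and 1 (2.68 CPM at day 14). The day 3 value of cDC1 was 10.1 CPM without its top cell, and the day 14 value of T cells 9.37 in 1-gate cells. This gene separated the conventional dendritic cells: cDC1 were lower than cDC2 (log2 fold -2.57, SE 0.43, edgeR adjusted p = 4.3e-04), and migratory DC higher than cDC1 by 3.04 (SE 0.40, adjusted p = 2.5e-06), while migratory DC over cDC2 gave 0.48 (SE 0.35, adjusted p = 0.328). Macrophages were higher than monocytes by 0.89 (SE 0.26, adjusted p = 0.0155), which was 0.0771 without the day 3 library and 0.0803 without day 7. Monocyte Tnfsf9 was 2.01-fold higher at day 14 than at day 7 (1.46 to 2.80). The 1-gate ratio was 3.08, from a day 7 level of 7.68 CPM.

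Cd40, the receptor through which helper T cells license dendritic cells, was highest in migratory DC on all 3 days, at 219 CPM (182 to 261), 104 (72.1 to 146) and 133 (107 to 163). Monocytes had 85.7, 43.7 and 20.5 CPM, macrophages 61.3, 24.6 and 18.2, cDC2 85.0, 84.8 and 18.7, cDC1 37.7, 28.2 and 15.5, and T cells 18.1, 7.09 and 6.80. The T cell values were 9.19, 3.33 and 3.30 CPM in 1-gate cells, and cDC1 at day 3 had 61.3 CPM without barcodes of 20000 UMIs or more. At day 7 the intervals of migratory DC and cDC2 overlapped, and without barcodes of 20000 UMIs or more cDC2 were higher (119 against 117 CPM). Migratory DC were higher than cDC1 by 2.85 log2 units (SE 0.32, edgeR adjusted p = 2.5e-07) and than cDC2 by 1.66 (SE 0.32, adjusted p = 3.7e-04). Neutrophils had 5, 0 and 3 UMIs, and the 1-gate level was lower than in monocytes, with 3 UMIs against 733 and a pooled ratio of 0.063 (0.013 to 0.186). Cd40 was lower at day 14 than at day 3 in the 6 populations where it was measured. It was 4.17-fold lower in monocytes at day 14 than at day 3 (3.38 to 5.19), 3.38-fold in macrophages (2.72 to 4.22), 4.55-fold in cDC2 (2.12 to 10.8), 2.66-fold in T cells (2.09 to 3.42), 2.44-fold in cDC1 (1.42 to 4.39) and 1.65-fold in migratory DC (1.25 to 2.18). In 1-gate cells the ratios were 4.59, 3.26, 3.96, 2.79, 1.69 and 1.49, the last 2 of them no longer past the rule.

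Macrophages and monocytes differed less. Cd80 (-0.74, SE 0.23, edgeR adjusted p = 0.0207), Cd86 (-0.56, SE 0.16, adjusted p = 0.0141) and Cd40 (-0.81, SE 0.25, adjusted p = 0.0210) were lower in macrophages, and Cd200 and Tnfsf9 higher, where 12.7% and 12.3% of all genes were. Each of the 3 lost its call without the day 3 library (adjusted p 0.0739, 0.275 and 0.187), and DESeq2 kept only Cd86. Cd80 also lost it without day 7 (0.083) or day 14 (0.0771), Cd40 without day 7 (0.0703) and Cd86 without day 14 (0.106). In neutrophils over monocytes 3 genes were higher and 3 lower, beside 17.7% and 28.1% of all genes. Pvr was among the lower (-1.58, SE 0.44, adjusted p = 0.00574), but with barcodes in every gate they passed it was -0.68 (adjusted p = 0.0896) and at 3000 UMIs or more -0.83 (0.22). In T cells over macrophages 8 were lower and none higher, beside 31.8% and 28.7%; at an unadjusted p under 0.05 none was higher, and DESeq2 gave none either.

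Several ligands were found in the same migratory DC. After thinning to 1500 UMIs, 45.5%, 50% and 39.0% of the 33, 16 and 41 1-gate migratory DC had UMIs of at least 3 of the 10 genes, against 14.8%, 7.34% and 3.55% of monocytes and 1.32%, 9.09% and 2.29% of neutrophils. The thinned shares were 10.9%, 0% and 3.03% in cDC1, 15%, 5% and 0% in cDC2, and 14.1%, 4.82% and 2.82% in macrophages. With all UMIs, the median migratory DC held 6, 7 and 6 of the 10 genes. The medians were 4, 4 and 3 in cDC1, 4, 5 and 3 in cDC2, and 4, 4 and 4 in macrophages. With all UMIs, Cd274 and Cd200 were both found in 34 of 41 at day 14 (82.9%), Cd274 without Cd200 in 7 and Cd200 alone in none. All 41 cells thus had Cd274, so this overlap follows from the share of cells with Cd200 and says nothing more about the pair. Cells of 1 library are not replicates, and the genes share the depth of the cell.

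The receptors of the 10 genes were read in the T cell gate. In T cells over macrophages, 8 of the 9 receptors tested were higher and 1, Cd200r1, lower, beside 28.7% and 31.8% of all genes. In T cells, Tnfrsf9 (4-1BB) had 452, 270 and 252 CPM at days 3, 7 and 14, Ctla4 232, 329 and 242, Cd28 167, 240 and 210, Pdcd1 126, 134 and 108, and Icos 101, 204 and 148. Cd226 had 53.4, 64.1 and 47.3 CPM, Havcr2 (TIM-3) 50.4, 39.5 and 26.4, Cd96 29.1, 51.5 and 40.4, Cd200r1 23.5, 24.8 and 21.3, Cd40lg 1.65, 15.8 and 11 and Tigit 2.68, 3.03 and 2.79. At day 14 over day 3, 1 of 11 was higher (Cd40lg, 6.63-fold, from 21 UMIs at day 3) and 2 lower (Havcr2, 1.91-fold, and Tnfrsf9, 1.80-fold). Of all genes measured in T cells, 4.97% were higher and 4.77% lower.

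Interferon-gamma signalling genes were followed beside the ligands. In monocytes 10 of 13 measured were lower at day 14 than at day 3 and 1, Ifngr1, higher, with a median log2 ratio of -1.34 against 0.01 for all genes. Of all genes measured there, 8.6% were lower and 5.52% higher. Cxcl9, a chemokine for activated T cells, had 2468, 465 and 336 CPM, Cxcl10 3288, 1504 and 664, Gbp2 3003, 992 and 808, and Irf8 1157, 515 and 458. In macrophages 10 of 13 were lower and none higher (median -1.10, all genes -0.06), beside 7.19% and 3.06% of all genes. At day 14 over day 3, 6 of 13 were lower in cDC1 (6.95% of all genes) and 8 of 13 in cDC2 (7.74%). In T cells 6 of 13 were lower (4.77%) and in migratory DC 5 of 13 (5.28%). Higher were 2 in cDC1 and 1 in migratory DC. In migratory DC, where neither PD-1 ligand passed the rule, 7 of 13 were lower at day 7 (7.05%). In neutrophils 8 of 12 were lower at day 14 (median -1.86, all genes -0.09), and 4 at day 7: Irf8, Cxcl9, Cxcl10 and Gbp2. Of all genes measured in neutrophils, 13.9% were lower at day 14 and 12.4% at day 7. Irf1 had 1121, 1211 and 279 CPM there, Gbp2 1429, 818 and 259, and Cxcl10 1270, 675 and 216, so Irf1 alone of these shared the order of Cd274 over the 3 days. CD40 and NF-kB signalling genes were lower in monocytes at day 14 for 7 of 10, among them Nfkb1 (1.84-fold) and Rel (1.74-fold). Another, Map3k14, was higher, and the shares of all genes were again 8.6% lower and 5.52% higher. At day 14 over day 3 none was lower in cDC1, cDC2 or T cells, where 10, 8 and 10 were measured. In neutrophils 3 of 7 were lower (13.9% of all genes), in macrophages 4 of 10 (7.19%) and in migratory DC 1 of 10 (5.28%). In migratory DC over cDC1, 9 of these 10 were higher, with Relb by 3.64 log2 units (SE 0.20, edgeR adjusted p = 7.8e-12) and Traf1 by 3.00 (SE 0.22, adjusted p = 4.5e-10). Of all genes tested, 17.3% were higher in that comparison. All 13 maturation genes tested were higher there too; that list shares genes with the markers of this gate, so it is no independent support. Relb is itself among those markers.

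Of the 20 other checkpoint and costimulation ligands, 11 were tested, with 5 higher and 4 lower in migratory DC over cDC1. Of all genes tested, 17.3% were higher and 18.7% lower. Cd47, the signal against engulfment, was higher by 0.95 (SE 0.20, edgeR adjusted p = 6.3e-04) and the adhesion molecule Icam1 by 1.57 (SE 0.30, adjusted p = 2.2e-04). The galectins Lgals3 (-1.93, SE 0.18, adjusted p = 2.2e-08) and Lgals1 (-1.50, SE 0.31, adjusted p = 5.1e-04) were lower, as Lgals9 was. Tnfsf4 (OX40 ligand) had 57 UMIs in 1-gate migratory DC and none in cDC1, and Cd70 (CD27 ligand) 96 and none; these 2 were named after their values were seen. In monocytes at day 14 over day 3, 1 of 12 measured was higher (Ceacam1) and 2 lower (Tnfsf15 and Icam1). These counts are small beside shares of 5.52% and 8.6% of all genes measured. The lists were chosen with earlier results of these data known.

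By Pearson r of log2(CPM + 1) over 21 points (7 populations on 3 days), the genes most like Cd274 were Zfand3 (0.94), Tmem140 (0.93) and Il15 (0.91). Those most like Pdcd1lg2 were Cdc42ep3 (0.85), Vps39 (0.81) and Gtpbp2 (0.80), like Cd80 Tctex1d2 (0.93), Ggta1 (0.89) and Pde4b (0.89), and like Cd86 Scpep1 (0.95), Vamp8 (0.95) and Tspo (0.93). Lgals9 was nearest to Slc31a1 (0.94), Ifi204 (0.92) and Cept1 (0.92), Cd200 to Plxnc1 (0.93), Ccser2 (0.92) and Foxp4 (0.91), and Cd40 to Tspo (0.93) and Ube2l6 (0.91). Tnfsf9 was nearest to Tmem176b (0.89), Tmem176a (0.88) and Sh2d1b1 (0.88), Icosl to Dapp1 (0.92), Siglecg (0.92) and Pmaip1 (0.91), and Pvr to Dusp22 (0.85) and Pisd (0.84). Among the 10 themselves, Cd86 and Cd40 had r = 0.84, Cd274 and Cd80 0.74, and Cd274 and Pdcd1lg2 0.59. The points of a day share a library, and these are the highest of 9610 genes compared, so they are a description.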

How the data were processed

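The study has 1 library per day from 10x Genomics 3′ chemistry (version 3.1, per the labels). The deposited matrices give counts of UMIs, not normalized, for each gene in each cell barcode. Per the submitters' processing notes they were made with Cell Ranger 4.0.0 and the mm10 build. Which annotation release the authors used and whether doublets had been taken out was not given in the sources used here. Both a cell sorter and magnetic beads are named for taking CD45+ cells, per the labels. The libraries hold 3656, 3038 and 3549 barcodes with 33096709, 29547433 and 35742070 UMIs, of which 2775, 2600 and 2902 barcodes had at least 1500. Of these 40.2%, 40.3% and 37.7% passed no gate.

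UMIs were summed per gate and library and divided by the summed total (CPM), with exact Poisson, Clopper-Pearson and conditional 95% intervals for sums, shares and ratios. PCR duplicates are removed by the UMIs, and the intervals cover counting error only. Cells were thinned to 1500 UMIs once, with a fixed seed, which left out none above that minimum. Population comparisons used edgeR 4.0.16 quasi-likelihood tests (TMM, filterByExpr, library as block, 12 residual degrees of freedom, Benjamini-Hochberg over 8684 genes) on sums of 1-gate cells; DESeq2 1.42.0 was an alternative. The block stands for the pool of mice that the populations of a library share. No doublet caller was run: cells of 1 gate, and barcodes under 20000 UMIs, were the alternatives. Both scripts were tested on simulated counts. All 10 members are named; of other lists, the 4 genes at most with the most UMIs among those past the rule or test, all 11 receptors, and the 3 most similar genes. Some genes that this rule picks are not reported here. No gate gene is a member. The members and lists were chosen with earlier results of these data known. Coordinates are from GENCODE M21 on the same build, promoters from RefSeq (GRCm38.p6).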

Additional observations from a re-analysis of the deposited data

Results flagged for a closer look

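With 1 library per day no group had enough samples for an outlier check. The results below stand out because populations of the same libraries went opposite ways past 1.5-fold, and none of these differences between populations was tested. For Cd274 at day 7 over day 3, the log2 ratio was 0.83 in neutrophils and -1.03 in monocytes, -1.45 in cDC1 and -0.66 in T cells. The T cell ratio was not past the rule in cells of 1 gate, where it was 1.29-fold lower. For Pdcd1lg2 it was 4.0 in cDC2, from 1 and 19 UMIs, and -2.21 in monocytes, -1.84 in macrophages and -1.85 in cDC1. For Lgals9 it was 1.11 in neutrophils and -0.71 in cDC1, and the second was not past the rule in 1-gate cells. For Cd200 it was 1.81 in macrophages and -1.65 in monocytes, the second from 5 and 25 UMIs. In 1-gate cells the macrophage ratio was 19.1-fold, from 5 UMIs at day 3, and the monocytes held 5 and 2 UMIs, too few for a ratio.

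At day 14 over day 7, the log2 ratio of Cd80 was 0.60 in T cells, -0.75 in macrophages and -0.89 in cDC1, with the macrophage value not past the rule in 1-gate cells. That of Cd200 was 2.68 in monocytes, 0.63 in T cells and -0.89 in macrophages. In 1-gate cells the macrophage ratio was 6.17-fold lower. The 1-gate monocytes held 2 and 12 UMIs of it, too few for a ratio, and the T cell ratio of 1.48 was under 1.5-fold.

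Barcodes under 1500 UMIs, which no comparison used, held 343, 191 and 169 UMIs of the 10 genes at days 3, 7 and 14. There were 881, 438 and 647 such barcodes.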

How the results depend on the processing

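No result reversed under any alternative run. Of the 67 ratios between days past the rule, cells of exactly 1 gate kept 46, barcodes under 20000 UMIs 50, barcodes of 1 library only 53, the mean over cells 55, leaving out the top cell 61, at least 3000 UMIs, under 10% mitochondrial UMIs and TMM 65 each, no minimum 67 and at least 100 UMIs 46. With at least 100 UMIs, 11 ratios were higher in place of 19, since fewer genes are measured. The genes highest in migratory DC on all 3 days were 5, and 2 (Cd80 and Cd200) without barcodes of 20000 UMIs or more. Lgals9 at day 7 was 151.1 CPM in both monocytes and neutrophils at 3000 UMIs or more. Those found in over 50% of migratory DC on all days were 6, and 1 after thinning. Of the 37 population calls, DESeq2 kept 35, no filter 37, at least 3000 UMIs 36, barcodes in every gate 33, shared barcodes left out 34, only the 2 populations compared 34, and leaving out the day 3, 7 or 14 library 31, 32 and 32. Scaling by library total, chosen after seeing the data, kept 37 of 37; it shifted the median of all genes by -0.22 in migratory DC and -0.42 in neutrophils.

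The lower calls of macrophages over monocytes were 3, and 1 with DESeq2, with barcodes in every gate or without shared barcodes, and 0 to 1 without 1 library. Its higher calls were 2, and 1 with every gate or only the 2 populations, and 0 without the day 7 library. The lower calls of cDC1 over cDC2 were 2, and 1 without shared barcodes, with only the 2 populations, or without the day 3 or day 7 library. The lower call of migratory DC over cDC1, Lgals9, was 0 with only the 2 populations, where the gene was not tested. T cells over macrophages gained 1 higher call with no filter or without the day 3 or day 7 library. Without the replicate block, 35 of 37 calls were kept and the lower calls of macrophages over monocytes were 1; the block changed no other call. Where the cause of a change is not named it was not tested. Gates of 16 to 55 dendritic cells limit what could be counted; so do medians of 2397 to 2605 UMIs per neutrophil.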

Other observations

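Monocytes could be described further by Cxcl9, an interferon-gamma-induced chemokine, a split made after the values were seen. Of 480, 327 and 282 1-gate monocytes, 66.0%, 30.9% and 22.3% had a Cxcl9 UMI. Those cells carried 655, 365 and 382 CPM of Cd274, and the others 346, 176 and 145. On days 3, 7 and 14 the ratios were 1.89 (1.72 to 2.08), 2.07 (1.81 to 2.38) and 2.64 (2.25 to 3.09). Cd40 was higher in the cells with Cxcl9 by 2.03-fold, 2.22-fold and 3.63-fold, and Cd86 by 1.32-fold, 1.40-fold and 1.32-fold. Pdcd1lg2 and Lgals9 were also higher there on all 3 days. The Pdcd1lg2 ratio at day 14 was 2.14 (0.82 to 5.32), from 9 and 14 UMIs. The Lgals9 intervals of cells with and without Cxcl9 overlapped on each day. Not all of the 10 genes were higher in cells with Cxcl9. Tnfsf9 had 13.2, 6.65 and 13.5 CPM with Cxcl9 and 14.4, 8.21 and 26.7 without. Cd80 was lower with Cxcl9 at days 3 and 14, and Pvr at day 14. The intervals of these lower values overlapped those of the cells without Cxcl9. Within each kind of cell, Cd274 was lower at day 7 than at day 3, by 1.80-fold with Cxcl9 and 1.96-fold without. From day 7 to day 14 it was 365 and 382 CPM in cells with Cxcl9, a ratio of 1.05. These are cells of 1 library per day, and no test was made.

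The T cell gate was mixed in its ligand levels. Cells with a Cd8a UMI and no Cd4 (396, 495 and 419) carried 52.5, 33.7 and 32.6 CPM of Cd274. Cells without Cd4, Cd8a or Foxp3 UMIs (199, 275 and 308) carried 285, 208 and 126. In the same cells the monocyte markers summed to 2417, 1473 and 1473 CPM, against 795, 684 and 491 in Cd8a cells, and NK cell markers to 1002, 1532 and 704. Their part in the Cd274 level was not tested. Cd200 went the other way, with 16.8, 22.6 and 36.0 CPM in Cd8a cells and 3.27, 6.99 and 9.34 in cells without the 3 genes.

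B cell markers summed to 174 CPM in the 16 1-gate migratory DC of day 7 and to 4.95 and 4.28 CPM at days 3 and 14. Their part in the day 7 values of the 10 genes was not tested.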
